A study of Homo sapiens with 36 samples.

Results

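Unexposed FLO1 cells carrying shAPE1#1, a short hairpin RNA against APEX1, were compared with unexposed FLO1 cells carrying a non-targeting hairpin (shControl). FLO1 is an established line from a human esophageal adenocarcinoma. The comparison rests on 6 of the 36 libraries of the series, 3 a side, chosen by their labels alone. Both hairpins were introduced by stable transduction, and whether the cells are clones or pools is not given in the sources used here. Neither side received acidic bile salts (ABS). The series also holds FLO1 cells with another hairpin against the same gene (shAPE1#3), all 3 FLO1 populations collected 6 h after 20 min of ABS (200 µM, pH 4), and the line OE33. The series' design text calls the 3 libraries of a group independent biological replicates and does not say whether each came from a separate transduction.

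APEX1 encodes APE1, the main apurinic/apyrimidinic endonuclease of base excision repair. A DNA glycosylase removes a damaged base, APE1 cuts the backbone at the abasic site, and a polymerase and a ligase close the gap. The same protein, also called Ref-1, reduces cysteines of transcription factors such as AP-1, NF-kB, HIF1, STAT3 and p53 and thereby raises their binding to DNA. APE1 is abundant in many tumors, and in the reflux-exposed esophagus it is studied for its part in repairing oxidative lesions.

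Polyadenylated RNA was sequenced, and the values below are CPM, counts scaled to the library total after TMM normalization. Library totals were 26081585 to 30422691 counts with shAPE1#1 and 26269031 to 31174985 with shControl. The replicates with shAPE1#1 lay closer together than the controls, with a chi-square per degree of freedom across genes of 2.41 to 3.56 against 8.56 to 15.4. Epithelial identity was judged on 6 markers. KRT8 and KRT18, keratins of simple epithelia, stood at 901 CPM or more in all 6 libraries, whereas the adhesion gene EPCAM stood at 0.391 to 1.76 CPM. KRT7 stood at 16.2 to 22.8 CPM, KRT19 at 8.39 to 14.4 CPM and CDH1 at 7.12 to 19.8 CPM. Markers of immune cells summed to 6.6 to 7.67 CPM, with PTPRC, CD2, CD3D and MS4A1 at 0 in all 6 libraries. Fibroblast markers summed to 21.5 to 24.6 CPM with shAPE1#1 and 24.6 to 26 CPM with shControl, nearly all of it COL1A1, and FAP was at 0 on both sides. Endothelial markers summed to 5.74 to 6.66 and 4.97 to 6.81 CPM. Traces of genes typical of columnar lines such as OE33 stood in shControl replicate 1 (CEACAM5 1.38 CPM, CEACAM6 1.26 CPM) and shAPE1#1 replicate 3 (AGR2 2.46 CPM, CEACAM5 0.899 CPM), and their part in the results was not tested.

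The target fell in every library. APEX1 (ENSG00000100823; chromosome 14, 20455191 to 20457772, plus strand) measured 25.8, 25.5 and 25.3 CPM with shAPE1#1 and 204, 197 and 200.1 CPM with shControl, a 7.85-fold lower level with no overlap. The log2 fold change was -2.97 ± 0.09 (adjusted p = 8.64e-16). Every adjusted p below is a Benjamini-Hochberg value from edgeR's quasi-likelihood test. No other gene of base excision repair passed. Of 24 measured members only APEX1 was called at an adjusted p under 0.05, and the list median was -0.0755 on the log2 scale against -0.0161 over all genes. That is 4.17% called, near the 6.74% of all genes tested. After ABS 5 of the 24 were called lower with shAPE1#1, APEX1 among them. In unexposed cells the uracil glycosylase UNG came nearest, at -0.24 ± 0.08 (adjusted p = 0.0752 by edgeR). APEX2, the paralogue, stood at -0.07 ± 0.10, the polymerase POLB at -0.04 ± 0.14, the scaffold XRCC1 at -0.13 ± 0.09 and PARP1, the sensor of strand breaks, at 0.01 ± 0.07. Of 13 measured genes flanking APEX1 on chromosome 14 or paralogous to it, 0 were called by edgeR or DESeq2, and 0 had an unadjusted p under 0.05. At the 6.74% called over all genes, a list this short would hold few calls.

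In all, 1137 of 16868 genes were called, 6.74% of those tested. More genes rose (763, 4.52%) than fell (374, 2.22%). Most of the changes were small: the median size was 0.617 on the log2 scale among the rises and 0.52 among the falls, and 578 of the 1137 were under 1.5-fold. At least 2-fold changes numbered 197 (1.17% of genes tested), of which 157 rose and 40 fell. The libraries of both sides did not overlap for 1132 of the 1137, beside 32% of all genes tested. An offset for GC content raised the count to 2840 and brought the share of rises from 67.1% to 56.7%, and a test against a 1.5-fold change called 71 genes, 64 of them rises. Leaving out any 1 of the 6 libraries left 665 to 773 genes called.

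**Figure D1:**
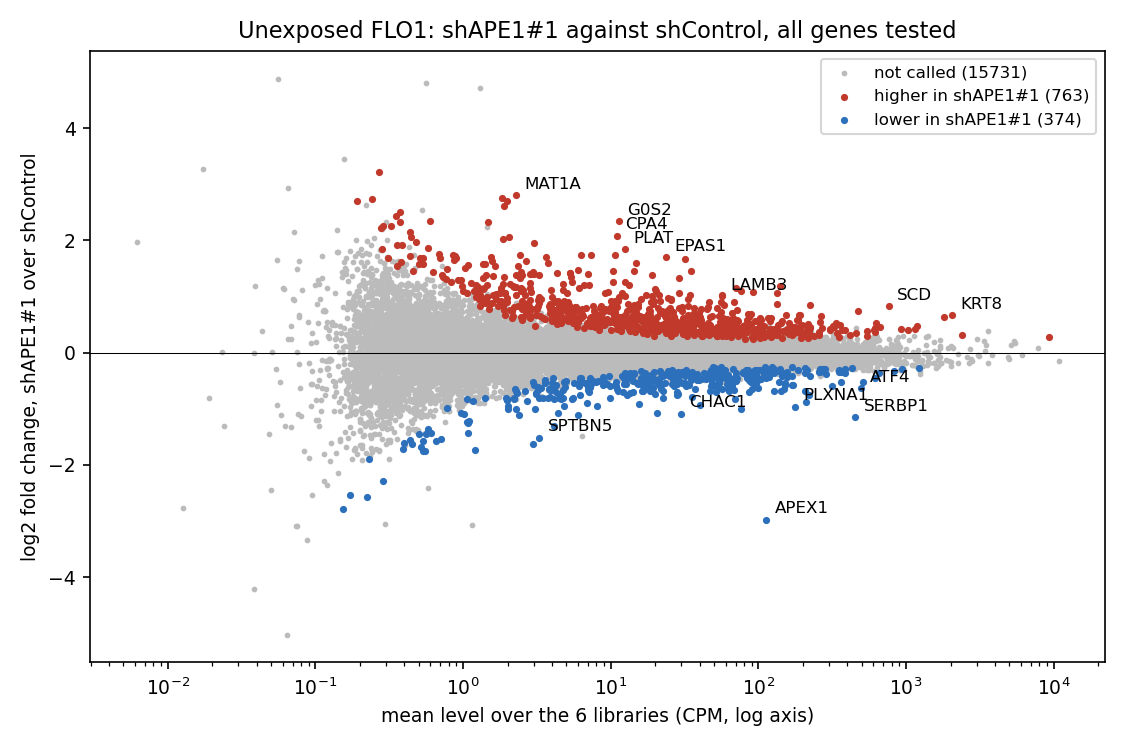
Each point is 1 of 16868 genes, placed by its mean level over the 6 libraries (CPM, log axis) and its log2 fold change with shAPE1#1 over shControl. Red points are the 763 genes called higher, blue points the 374 called lower and grey points the rest; APEX1, at -2.97, is the lowest called gene, and most called genes lie within 1 log2 unit of 0.

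The genes that rose most encode enzymes, proteases and proteins of the cell surface and cytoskeleton. MAT1A (ENSG00000151224; chromosome 10, 80271820 to 80289684, minus strand), the liver form of methionine adenosyltransferase, which makes S-adenosylmethionine, was barely present in control cells. It measured 3.52, 4.76 and 3.73 CPM with shAPE1#1 and 0.764, 0.447 and 0.508 CPM with shControl, 6.997-fold higher (2.81 ± 0.26, edgeR adjusted p = 4.68e-07). G0S2 (ENSG00000123689; chromosome 1, 209675420 to 209676388, plus strand), an inhibitor of the triglyceride lipase ATGL, reached 22.2, 17.8 and 16.9 CPM against 4.62, 2.71 and 3.91 CPM, 5.09-fold higher. CPA4 (ENSG00000128510; chromosome 7, 130293134 to 130324180, plus strand), a secreted carboxypeptidase, stood at 16.6, 17.2 and 19.8 CPM against 3.67, 4.66 and 4.26 CPM, 4.25-fold higher. For each of the 3 genes the lowest shAPE1#1 library exceeded the highest control by several times.

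EPAS1 (ENSG00000116016; chromosome 2, 46293667 to 46386703, plus strand), which encodes the hypoxia-inducible factor HIF2 alpha, measured 37.9, 35.3 and 36.2 CPM with shAPE1#1 and 10.5, 11.9 and 11.2 CPM with shControl (1.70 ± 0.13, edgeR adjusted p = 2.75e-08). TGM2 (ENSG00000198959; chromosome 20, 38127387 to 38166578, minus strand), the tissue transglutaminase that cross-links proteins, measured 46.8, 49.4 and 49.9 CPM against 15.6, 12.8 and 17.9 CPM (1.66 ± 0.13, edgeR adjusted p = 9.62e-08). Both sides were tight and far apart for these genes. ITGA11, a collagen-binding integrin subunit, rose by 1.74 ± 0.18, DPYSL3, which binds tubulin, by 1.74 ± 0.17, MAP7, which stabilises microtubules, by 1.95 ± 0.19, and EPS8, an actin capping and EGF receptor substrate protein, by 1.71 ± 0.18. The phospholipid flippase ATP10D rose by 1.74 ± 0.23, the ADP-ribosyltransferase ART5 by 1.74 ± 0.14, the epithelial sodium channel subunit SCNN1G by 1.63 ± 0.18, the membrane protease MMP24 by 1.61 ± 0.18 and the interferon-inducible GTPase GBP1 by 2.05 ± 0.30. The edgeR adjusted p of these 9 genes was at most 0.000127.

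Among nuclear genes, the largest rises in CPM were those of abundant genes. FTH1, the heavy chain of the iron store ferritin, rose from 1423 ± 116 to 2203 ± 34.95 CPM (SD, n = 3). KRT8 rose from 1589.8 ± 125 to 2518 ± 86.2 CPM and its partner KRT18 from 983 ± 92.9 to 1319 ± 37.8 CPM. CD44, the hyaluronan receptor, measured 1384, 1380.2 and 1372 CPM with shAPE1#1 and 993, 997 and 999 CPM with shControl. With a spread this narrow, a 1.38-fold difference was many times the SD on either side (edgeR adjusted p = 0.000207). SCD, the desaturase that makes monounsaturated fatty acids, rose from 549 ± 19.5 to 976 ± 25.3 CPM.

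The falls were smaller. After APEX1, the largest among protein-coding genes with a mean of at least 2 CPM and no overlap between sides was SPTBN5 (ENSG00000137877; chromosome 15, 41848144 to 41894077, minus strand), a beta-spectrin of the membrane skeleton, at 1.64, 1.59 and 1.86 CPM against 4.77, 5.202 and 4.58 CPM (-1.51 ± 0.17, edgeR adjusted p = 4.81e-06). SERBP1 (ENSG00000142864; chromosome 1, 67407810 to 67430415, minus strand), which encodes a messenger RNA- and ribosome-binding protein, was the only fall of 2-fold or more among genes above 100 CPM in control cells apart from APEX1 and EFNA1. It measured 278, 278 and 291 CPM with shAPE1#1 and 617, 672 and 579.8 CPM with shControl (-1.14 ± 0.11, edgeR adjusted p = 1.25e-06). JDP2 (ENSG00000140044; chromosome 14, 75427716 to 75474111, plus strand), a repressor that dimerises with JUN, stood at 13.01, 12.3 and 14.3 CPM against 25.2, 25.2 and 32.9 CPM (-1.07 ± 0.12). Its antisense partner JDP2-AS1 stood at -1.01 ± 0.23 and lost its call without shAPE1#1 replicate 1 or 2 or shControl replicate 2 (edgeR adjusted p = 0.0509 to 0.0655). Without a stated strand setting, reads of the pair cannot be told apart.

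DNMT1, the maintenance DNA methyltransferase, fell from 598 ± 28.5 to 417 ± 4.44 CPM (-0.52 ± 0.10, edgeR adjusted p = 0.00212). DOC2B, a calcium sensor of exocytosis, stood at -0.93 ± 0.11, SOX8 at -0.95 ± 0.22, the acute-phase gene SAA1 at -0.92 ± 0.16, the phosphoinositide-binding PLEKHA3 at -0.95 ± 0.13 and AMN1 at -1.01 ± 0.20, each with an edgeR adjusted p of at most 0.00855. SOX8 lost its call without shControl replicate 3 (edgeR adjusted p = 0.0617). IGF2, a growth factor gene, fell from 271 ± 30.02 to 148 ± 3.47 CPM (SD, n = 3; -0.87 ± 0.13), and its reads cannot be told apart from those of the antisense gene IGF2-AS.

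**Figure D2:**
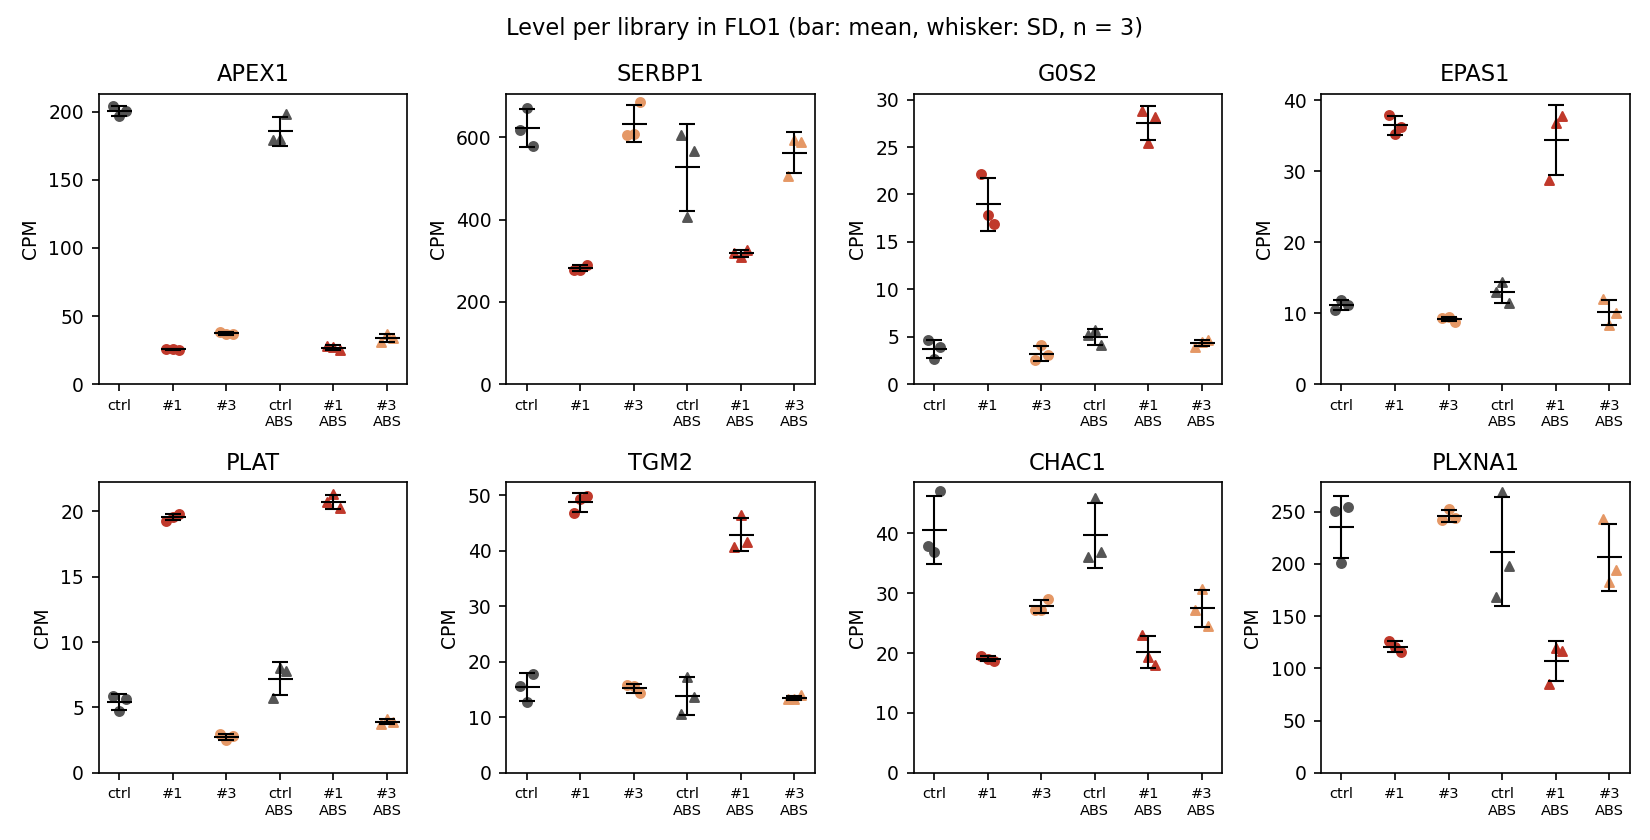
Levels in CPM of 8 genes in every FLO1 library, 3 libraries a group, with black bars for the mean and SD; circles are unexposed and triangles ABS-exposed libraries, grey for shControl, red for shAPE1#1 and orange for shAPE1#3. G0S2, EPAS1, PLAT and TGM2 are high in the shAPE1#1 groups alone, SERBP1 and PLXNA1 are low in them, and APEX1 is low with both hairpins.

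Among the gene lists, which were chosen with earlier results of these data known, the highest share of called members was that of the integrated stress response. In this pathway, phosphorylation of the initiation factor eIF2 alpha slows general translation and favours that of the transcription factor ATF4, which turns on amino acid synthesis, amino acid transport and feedback genes. Of 25 measured members, 14 fell, 1 rose and 10 did not pass, and the list median was -0.343. Members called made up 60%, beside 6.74% of all genes tested (4.52% higher, 2.22% lower, median -0.0161). Among the transcription factors, ATF4 itself (ENSG00000128272; chromosome 22, 39519695 to 39522685, plus strand) measured 402, 386 and 381 CPM with shAPE1#1 and 625, 593 and 592 CPM with shControl (-0.63 ± 0.09, edgeR adjusted p = 9.47e-05). Its dimer partner CEBPG (-0.41 ± 0.09) and DDIT3, the factor CHOP (-0.46 ± 0.12), fell, while ATF5 stood at -0.03 ± 0.10 and did not pass.

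Enzymes of serine and one-carbon metabolism fell, except the folate enzyme ALDH1L2 (-0.07 ± 0.14), which did not pass. PHGDH, the first enzyme of serine synthesis, measured 138, 131 and 137 CPM against 203, 189 and 213 CPM (-0.58 ± 0.10). PSAT1, which follows it, stood at 298, 295 and 298 CPM against 420.3, 443 and 414 CPM (-0.52 ± 0.09), and PSPH, the last step, at -0.30 ± 0.08. The mitochondrial folate enzymes SHMT2 (-0.38 ± 0.11) and MTHFD2 (-0.34 ± 0.10) fell too, as did ASNS, asparagine synthetase (125, 120.3 and 121 CPM against 183, 191 and 171 CPM, -0.57 ± 0.09). The edgeR adjusted p of these 6 enzymes was at most 0.0359. Of the amino acid carriers, the heavy chain SLC3A2 fell (-0.37 ± 0.11, edgeR adjusted p = 0.0377), whereas its light chain SLC7A5 (-0.20 ± 0.12) and the cationic carrier SLC7A1 (-0.28 ± 0.11) did not pass. The transfer RNA synthetase genes AARS1, WARS1 and GARS1 stood at 0.03, -0.07 and -0.19 and did not pass either.

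Of the effectors, CHAC1 (ENSG00000128965; chromosome 15, 40952962 to 40956519, plus strand), which degrades glutathione, measured 19.6, 18.98 and 18.7 CPM against 37.9, 36.8 and 47.1 CPM, 2.13-fold lower (-1.09 ± 0.12, edgeR adjusted p = 4.81e-06). VLDLR, a lipoprotein receptor, measured 25.9, 25.9 and 26.2 CPM against 45.8, 45.7 and 43.3 CPM (-0.79 ± 0.08, edgeR adjusted p = 1.25e-06). The pseudokinase TRIB3, which feeds back on ATF4 (-0.54 ± 0.12), and SESN2, a leucine sensor (-0.46 ± 0.11), fell. The only member that rose was NUPR1 (ENSG00000176046; chromosome 16, 28532708 to 28539174, minus strand), a chromatin-associated stress protein, at 20.2, 22.1 and 21.6 CPM against 12.3, 9.702 and 10.9 CPM (0.96 ± 0.12, edgeR adjusted p = 1.27e-05). Without 1 library the count of falls was 7 to 11 of 25, lowest without shAPE1#1 replicate 3, with 8 without shAPE1#1 replicate 2 and 9 without shAPE1#1 replicate 1 or shControl replicate 3. SESN2 was among the members lost, without shAPE1#1 replicate 2 or 3 or shControl replicate 3 (edgeR adjusted p = 0.0512 to 0.0945).

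**Figure D3:**
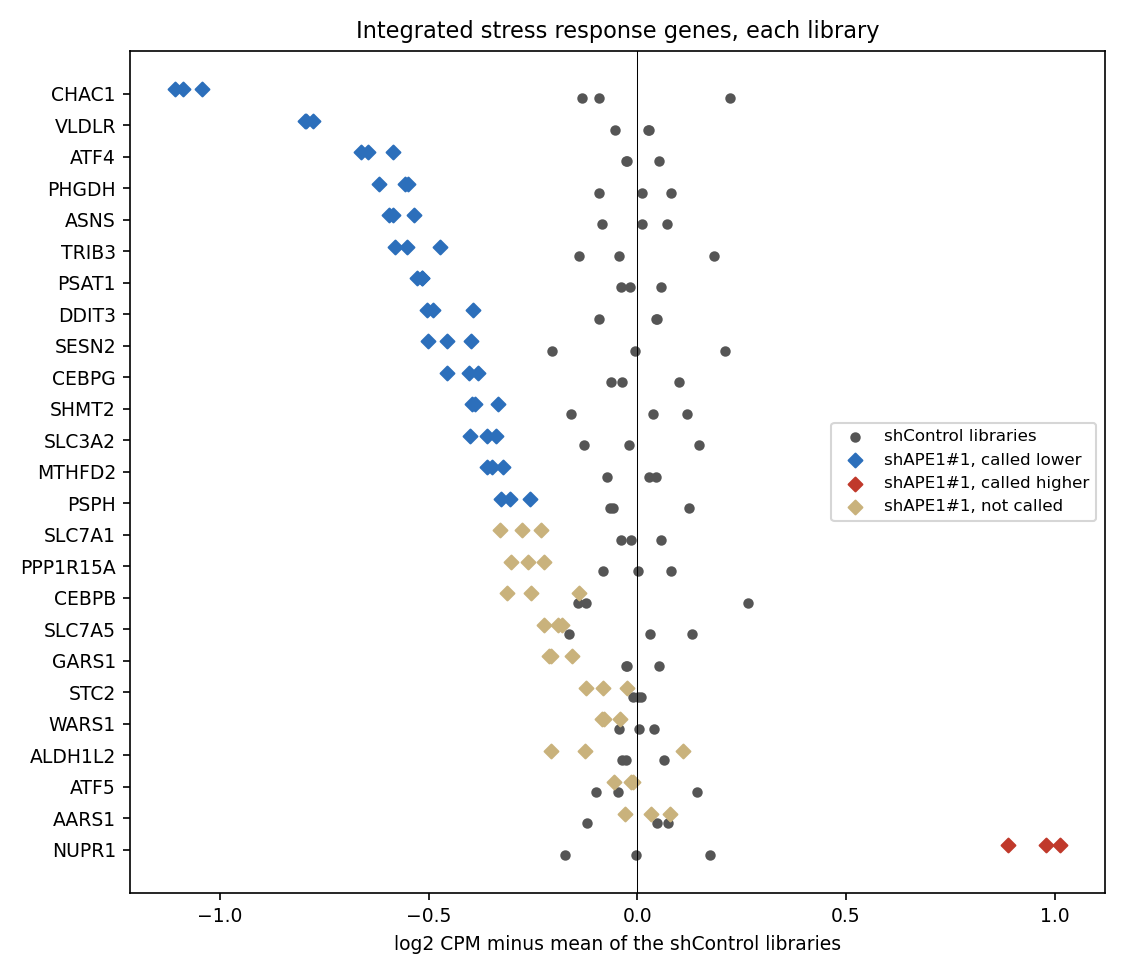
Each row is 1 of 25 integrated stress response genes; points give log2 CPM of each library minus the mean of the 3 shControl libraries, grey circles for shControl and diamonds for shAPE1#1. The 14 blue rows are called lower, from CHAC1 at -1.09 to PSPH at -0.30, NUPR1 in red is called higher at 0.96, and the 10 sand-coloured rows did not pass.

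To show what the promoters of these genes hold, the letters TGATGNAA, the composite element bound by ATF4 with a C/EBP partner, were searched on both strands from 250 bases before to 50 after each RefSeq start. Of the 14 falling members, 12 had a promoter in the table, and 3 of the 12 (25%) held a match, beside 1.64% of 11559 promoters of genes tested. Of all 21 list members with a promoter 5 (23.8%) held one. The matches are shown 5′ to 3′ on the gene's own strand with the element in capitals (RefSeq, GRCh38.p14). They were chosen after the values were seen.
CHAC1: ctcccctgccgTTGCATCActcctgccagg
ASNS: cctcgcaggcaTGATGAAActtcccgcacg
SLC3A2: tgcaggactccTTACATCAgctcc
The printed CHAC1 bases lie at chr15:40953251-40953280 on the plus strand. The element within them begins 209 bases before the start and is the element read from the other strand, as is that of SLC3A2. The printed ASNS bases lie at chr7:97872458-97872487 on the minus strand, and the element begins 68 bases before the start. The printed SLC3A2 bases lie at chr11:62881725-62881748 on the plus strand, and the element begins 38 bases after the start. First exons of other GENCODE transcripts overlap these windows. Among all genes that rose 2.11% and among all that fell 3.24% held a match. The AP-1 site TGANTCA was found in 4.91% of promoters of rising genes, 3.24% of falling genes and 4.68% of all. The cAMP element TGACGTCA was found in 3.33%, 2.52% and 3.28%, and the NRF2 core TGACNNNGC, which can overlap the AP-1 site, in 15.8%, 13.7% and 15.2%. The E-box CACGTG was found in 8.07%, 8.99% and 10.1%. A match is a description of these letters only.

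The transcription factors whose DNA binding APE1 is known to favour were followed through lists of their targets. NF-kB is a dimer of Rel proteins held in the cytoplasm by inhibitors until cytokine signals release it. Of 22 measured targets and subunits, 6 fell, 0 rose and 16 did not pass, with a list median of -0.296. Members called made up 27.3%, beside 6.74% of all genes tested (2.22% lower, median -0.0161). No subunit passed: RELA stood at -0.09 ± 0.12, NFKB1 at -0.28 ± 0.09 and RELB at -0.27 ± 0.13. The inhibitors NFKBIA (103, 97.6 and 102 CPM against 144, 126 and 139 CPM, -0.44 ± 0.10) and TNFAIP3 (25.9, 25.4 and 26.2 CPM against 38.2, 35.6 and 38.5 CPM, -0.54 ± 0.09) both fell, as did the adaptor TRAF1 (-0.49 ± 0.12), with an edgeR adjusted p of at most 0.0103. Of the ligands, TNF (ENSG00000232810; chromosome 6, 31575567 to 31578336, plus strand) fell from 6.53, 6.03 and 6.53 CPM in the controls to 3.91, 2.69 and 3.23 CPM (-0.96 ± 0.15, edgeR adjusted p = 0.000213). The chemokine CCL20 stood at 0.742, 0.627 and 0.2997 CPM against 2.25, 1.69 and 1.56 CPM (-1.74 ± 0.36, edgeR adjusted p = 0.00405). CXCL3, under 1 CPM in every library, was called at -1.61 ± 0.46 (edgeR adjusted p = 0.0372) and lost the call without any 1 of 5 of the 6 libraries (edgeR adjusted p = 0.0779 to 0.147; shControl replicate 3 was the exception) and with the replicate number as a block (0.0527). CXCL8, CXCL2 and CXCL1 stood at -1.07, -0.78 and -0.77 and did not pass. Over all settings run, 4 to 14 members of the list were called lower and 0 higher. With shAPE1#3 in unexposed cells 0 of the 22 passed in either direction, and the list median was 0.0238.

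AP-1 is a dimer of FOS and JUN proteins, whose genes are among those that growth signals induce within minutes. Of 26 measured genes of the immediate early response and AP-1 family 6 fell, 1 rose and 19 did not pass, with a list median of -0.172. Members called made up 26.9%, beside 6.74% of all genes tested. Of the AP-1 subunits, JUN stood at -0.24 ± 0.08, FOS at -0.36 ± 0.23, JUNB at -0.34 ± 0.12 and FOSL1 at 0.15 ± 0.12, and none of these 4 passed. FOSB was called (-1.62 ± 0.34, edgeR adjusted p = 0.00481), but its libraries overlapped, at 1.56, 0.7004 and 2.098 CPM against 1.83, 4.76 and 7.001 CPM, and it did not pass with the 6 libraries fitted alone (edgeR adjusted p = 0.101). ATF3 (-0.35 ± 0.10), the zinc-finger factor EGR1 (-0.46 ± 0.10) and IER2 (-0.52 ± 0.13) fell. The orphan nuclear receptors NR4A2 (-1.003 ± 0.24) and NR4A1 (-0.83 ± 0.20) fell, and DUSP5, a phosphatase of nuclear ERK, rose (0.37 ± 0.09). The edgeR adjusted p of these 6 genes was at most 0.0339. shControl replicate 3 was the highest library for NR4A1 and NR4A2, at 9.97 and 3.95 CPM. Without it their log2 fold changes shrank to -0.50 and -0.65 (edgeR adjusted p = 0.119 and 0.107), and the adjusted p was 0.0503 to 0.0705 without shAPE1#1 replicate 1 or 3. IER2 lost its call without shAPE1#1 replicate 1 or 2 or shControl replicate 3 (edgeR adjusted p = 0.0505 to 0.0939). Without 1 library the list had 2 to 7 falls and 0 or 1 rise. The count of falls was 2 without shAPE1#1 replicate 1 or 3 or shControl replicate 3. It was 4 without shAPE1#1 replicate 2 and 5 without shControl replicate 2. By these counts ATF3 and EGR1 both lost their calls without shAPE1#1 replicate 3. At least 1 of them was lost without any other library but shControl replicate 1. DUSP5 lost its call without shAPE1#1 replicate 1 or 3 or shControl replicate 2 (edgeR adjusted p = 0.0531 to 0.095). With shAPE1#3 in unexposed cells 2 of the 26 list members fell and 0 rose, and the list median was -0.0361.

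STAT3 transduces signals of the interleukin-6 family. The gene STAT3 itself fell, with 522, 524 and 504 CPM against 698, 700.0 and 734 CPM (-0.46 ± 0.09, edgeR adjusted p = 0.00152), and so did its target PIM1, a survival kinase, with 68.8, 70.1 and 71.5 CPM against 105, 107 and 117 CPM (-0.65 ± 0.09, edgeR adjusted p = 9.86e-05). The oncostatin M receptor OSMR (0.32 ± 0.09) and the feedback inhibitor SOCS1 (0.52 ± 0.14) rose, so 2 of 16 measured members rose and 2 fell. That is 25% called, beside 6.74% of all genes tested. OSMR lost its call without any 1 of the 6 libraries (edgeR adjusted p up to 0.101) and SOCS1 without 4 of them, shAPE1#1 replicates 1 and 3 and shControl replicates 1 and 2 (up to 0.133). Of 27 measured HIF1 targets, 2 rose and 3 fell, which is 18.5% called. PDK1, which curbs pyruvate entry into mitochondria, rose (0.63 ± 0.15), as did the glucose transporter SLC2A3 (0.85 ± 0.15), while VEGFA fell from 103 ± 5.63 to 72.7 ± 2.95 CPM (-0.50 ± 0.08). The other falls were ANGPTL4 (-0.41 ± 0.11) and BNIP3L (-0.37 ± 0.11), and ANGPTL4 lost its call without any library but shControl replicate 2 (edgeR adjusted p up to 0.175). PDK1 lost its call without shControl replicate 1 (edgeR adjusted p = 0.0534). Of 23 measured p53 targets 13% were called: the death receptor FAS (0.70 ± 0.20) and TP53I3 (0.46 ± 0.10) rose and SESN2 fell. FAS lost its call without 4 of the 6 libraries, shAPE1#1 replicates 2 and 3 and shControl replicates 1 and 3 (edgeR adjusted p up to 0.223), and TP53I3 without shControl replicate 2 (0.0527). Of 19 NRF2 targets 10.5% were called: FTH1 rose (0.63 ± 0.11) and HMOX1, heme oxygenase, fell (-0.37 ± 0.08). HMOX1 lost its call without shAPE1#1 replicate 3 or shControl replicate 1 (edgeR adjusted p = 0.0503 and 0.055). No member of the 21 thioredoxin, peroxiredoxin and glutathione peroxidase genes was called by edgeR (2 by DESeq2, and 7 at an unadjusted p under 0.05), with PRDX1 at -0.04 ± 0.10 and TXNRD1 at -0.06 ± 0.08.

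Some proteases of the matrix and some of their inhibitors rose. Plasminogen activators cleave plasminogen to plasmin, which with the matrix metalloproteases degrades the extracellular matrix, and both have dedicated inhibitors. Of 19 measured genes of this system 7 rose and 0 fell, with a list median of 0.221. That is 36.8% called, beside 6.74% of all genes tested (4.52% higher). Of the activators, PLAT, the tissue type, measured 19.3, 19.6 and 19.8 CPM with shAPE1#1 and 5.88, 4.76 and 5.67 CPM with shControl, 3.605-fold higher (1.85 ± 0.12, edgeR adjusted p = 4.64e-09). PLAU, the urokinase type, stood far higher on both sides, at 1062, 1026 and 1072 CPM against 779, 746 and 826 CPM (0.43 ± 0.09). Its receptor PLAUR was at 0.05 ± 0.12 and did not pass. The proteases MMP14 (0.40 ± 0.10) and CTSV (0.49 ± 0.09) rose, whereas MMP9 (-0.40 ± 0.14) did not pass.

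Among the inhibitors, TIMP3 (ENSG00000100234; chromosome 22, 32801701 to 32863043, plus strand) measured 8.67, 10.6 and 11.1 CPM against 4.28, 3.702 and 3.56 CPM (1.40 ± 0.14, edgeR adjusted p = 1.25e-06), TIMP2 rose by 0.57 ± 0.09, and SERPINE2, an inhibitor of both plasminogen activators, measured 49.3, 44.6 and 45.98 CPM against 26.8, 26.7 and 27.3 CPM (0.79 ± 0.08, edgeR adjusted p = 1.13e-06). Without 1 library the list had 6 or 7 rises. With shAPE1#3 in unexposed cells 0 of the 19 rose and 1 fell, and the list median was -0.108. MMP2, a gelatinase counted among mesenchymal genes, rose from 84.2, 75.3 and 94.3 CPM to 193, 196 and 191 CPM (1.19 ± 0.12, edgeR adjusted p = 1.25e-06).

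Single epithelial and mesenchymal genes changed. CDH1 (ENSG00000039068; chromosome 16, 68737225 to 68835548, plus strand), which encodes E-cadherin, was low on both sides and rose, with 17.6, 19.8 and 18.5 CPM against 9.63, 7.12 and 7.55 CPM (1.21 ± 0.13, edgeR adjusted p = 2.01e-06). ZEB2, a repressor of CDH1, fell, with 4.102, 4.98 and 5.36 CPM against 8.403, 10.3 and 8.25 CPM (-0.90 ± 0.14, edgeR adjusted p = 0.00032). TNC, the matrix protein tenascin C, rose from 353 ± 39.8 to 589 ± 4.96 CPM (0.74 ± 0.15). In all, 2 of 24 measured junction genes rose and 0 fell (the other riser was CLDN4, 0.68 ± 0.17), and of 13 measured mesenchymal genes MMP2 and TNC rose and ZEB2 fell. That is 8.33% of junction genes and 23.1% of mesenchymal genes, beside 6.74% of all genes tested. CLDN4 lost its call without shAPE1#1 replicate 1 or 3 or shControl replicate 2 (edgeR adjusted p = 0.0539 to 0.0955). The summed level of the 6 epithelial markers was 3760 to 3980 CPM with shAPE1#1 and 2470 to 2840 CPM with shControl, mostly KRT8 and KRT18. The other markers apart from CDH1 overlapped between sides. KRT7 stood at 16.2 to 19.4 against 16.9 to 22.8 CPM, KRT19 at 10.1 to 14.2 against 8.39 to 14.4 CPM and EPCAM at 0.547 to 0.7 against 0.391 to 1.76 CPM. In bulk RNA a change in the share of cells and a change of RNA per cell cannot be told apart.

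LAMB3 (ENSG00000196878; chromosome 1, 209614870 to 209652466, minus strand), a chain of the basement membrane protein laminin-332, measured 76.4, 74.6 and 77.6 CPM against 39.8, 35.01 and 38.6 CPM (1.01 ± 0.13, edgeR adjusted p = 1.98e-05). It was 1 of 3 rises among 14 measured laminin and hemidesmosome genes (21.4% called, beside 6.74% of all genes tested). The others, the integrin subunit ITGA3 (0.44 ± 0.12) and LAMC1 (0.35 ± 0.10), lost their calls without single libraries, LAMC1 without any 1 of the 6 (edgeR adjusted p up to 0.101) and ITGA3 without any but shControl replicate 3 (up to 0.141). Of 21 measured actin and contractility genes 3 rose (14.3%): CALD1, which binds actin and myosin (14.8, 18.7 and 19.3 CPM against 7.56, 8.01 and 6.49 CPM, 1.26 ± 0.15), the light chain MYL9 (0.53 ± 0.12) and the smooth muscle actin ACTG2, near 1 CPM at most (2.35 ± 0.44). Their edgeR adjusted p was at most 0.00937, and MYL9 lost its call without shControl replicate 2 (0.0621). VCL, which links actin to adhesion sites, rose from 882 ± 21.3 to 1165 ± 22.3 CPM (0.40 ± 0.10), and its call was lost without shAPE1#1 replicate 2 or 3 or shControl replicate 1 or 2 (edgeR adjusted p = 0.0562 to 0.0671).

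Guidance molecules, first known from growing axons and used by epithelial and tumor cells for adhesion and migration, changed both ways. Of 25 measured receptors and ligands 5 rose and 2 fell. That is 28% called, beside 6.74% of all genes tested. The semaphorin receptor PLXNA1 (ENSG00000114554; chromosome 3, 126988594 to 127037392, plus strand) fell from 250.2, 201 and 254 CPM to 126, 120.1 and 116 CPM (-0.96 ± 0.15), while its paralogue PLXNA2, expressed far lower, rose from 3.93, 2.78 and 3.09 CPM to 5.43, 7.15 and 7.76 CPM (1.06 ± 0.18). The edgeR adjusted p was 0.00028 for PLXNA1 and 0.000737 for PLXNA2. EFNA1 (ENSG00000169242; chromosome 1, 155127460 to 155134857, plus strand), a membrane-bound ligand of Eph receptors, fell from 108, 90.1 and 107 CPM to 52.2, 49.7 and 50.2 CPM (-1.004 ± 0.10, edgeR adjusted p = 2.07e-06). NTN4, a netrin of basement membranes, rose (1.38 ± 0.23), as did the co-receptor NRP1 (0.58 ± 0.11), SEMA4B (0.49 ± 0.14) and the netrin receptor NEO1 (0.41 ± 0.13). Leaving out any 1 library except shControl replicate 3 left 3 rises, and 2 or 3 falls.

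Lipid genes rose in part. Cholesterol synthesis and uptake are driven by the SREBP factors, which cells activate when sterols are scarce. Of 28 measured genes 7 rose and 0 fell, with a list median of 0.23. That is 25% called, beside 6.74% of all genes tested (4.52% higher). SCD measured 967, 956 and 1004 CPM with shAPE1#1 and 527, 563 and 557 CPM with shControl (0.83 ± 0.08, edgeR adjusted p = 1.29e-06). The sterol carrier STARD4 (0.66 ± 0.18) and the late synthesis enzymes MSMO1 (0.59 ± 0.18), EBP (0.39 ± 0.09) and DHCR7 (0.38 ± 0.11) were also among the rises. The early enzyme HMGCS1 (0.24 ± 0.12) and the factors SREBF1 (-0.09 ± 0.14) and SREBF2 (0.16 ± 0.11) did not pass. Without 1 library 2 to 5 members rose, the fewest without shAPE1#1 replicate 3, with 3 without shAPE1#1 replicate 1 or 2 or shControl replicate 2 and 4 without shControl replicate 1. STARD4 passed only without shAPE1#1 replicate 1 and MSMO1 only without shControl replicate 2, with an edgeR adjusted p of up to 0.102 and 0.194 without each of the others. With shAPE1#3 in unexposed cells 0 of the 28 passed in either direction, and the list median was 0.0477.

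Interferon-stimulated genes encode antiviral proteins. Of 29 measured members 5 rose and 0 fell, with a list median of 0.263. That is 17.2% called, beside 6.74% of all genes tested (4.52% higher). OASL measured 18.8, 16.6 and 16.8 CPM against 14.4, 9.25 and 10.8 CPM (0.60 ± 0.15, edgeR adjusted p = 0.0152) and IFIT1 22.3, 22.4 and 23.7 CPM against 16.9, 18.3 and 13.7 CPM (0.48 ± 0.14, edgeR adjusted p = 0.0378). IFI6 (0.42 ± 0.10), IFI35 (0.38 ± 0.09) and STAT2 (0.35 ± 0.11), a subunit of the factor that turns these genes on, made up the rest. Its partner IRF9 (0.27 ± 0.27) did not pass. The count was 1 without shAPE1#1 replicate 1, 2 without shAPE1#1 replicate 2 or shControl replicate 3 and 3 without each of the other libraries. IFIT1 passed only without shControl replicate 2 (edgeR adjusted p up to 0.187 without each of the others), and OASL lost its call without shAPE1#1 replicate 1 or shControl replicate 2 or 3 (0.0672 to 0.104). IFI6 lost its call without shAPE1#1 replicate 2 or shControl replicate 1 (edgeR adjusted p = 0.057 and 0.0638) and IFI35 without shAPE1#1 replicate 1 or shControl replicate 2 (0.069 and 0.0802). By these counts STAT2 lost its call without shAPE1#1 replicate 1, 2 or 3 or shControl replicate 3. With shAPE1#3 in unexposed cells 1 of the 29 rose and 2 fell, and the list median was -0.106.

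Genes of replication and of homologous recombination were called at 7.14% each, close to the 6.74% of all genes, and every call was a fall, beside 2.22% falls over all genes. Of 28 measured replication genes PRIM1, a primase subunit (-0.41 ± 0.11), and ORC1, of the origin recognition complex (-0.29 ± 0.08), fell. Of 28 genes of homologous recombination and the Fanconi pathway XRCC3 (-0.50 ± 0.14) and RAD51D (-0.37 ± 0.09) fell. Each of these 4 calls was lost without at least 4 of the 6 single libraries, with an edgeR adjusted p of up to 0.127 for PRIM1, 0.133 for ORC1, 0.127 for XRCC3 and 0.0945 for RAD51D. Of 25 mitotic genes 0 were called by edgeR, 2 by DESeq2 and 5 at an unadjusted p under 0.05. The list median was -0.14, MKI67 stood at -0.14 ± 0.16 and TPX2 at -0.09 ± 0.08. Of 30 nuclear genes of oxidative phosphorylation 0 were called by edgeR, 1 by DESeq2 and 2 at an unadjusted p under 0.05, with a list median of -0.0198, while MT-CO1 (0.29 ± 0.07) and MT-ND1 (0.31 ± 0.08) rose among 13 measured mitochondrially encoded genes. Mitochondrial transcripts took 3.54 to 3.84% of counts with shAPE1#1 and 3.11 to 3.24% with shControl, without overlap, and the part of this share in the results was not tested. MT-CO1 lost its call without shAPE1#1 replicate 2 or 3 or shControl replicate 2, and MT-ND1 without these or shControl replicate 1 (edgeR adjusted p up to 0.121 and 0.0943).

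In the remaining lists the share of members called lay between 0 and 21.1%, beside 6.74% of all genes tested, with the circadian clock (21.1%), TGF-beta signalling (20%) and keratins (20%) highest. Of 15 measured columnar genes 1 rose, GATA6 (0.68 ± 0.13), and of 10 squamous genes 1 rose, beside 2 of 10 simple epithelial keratins and CEACAM genes, KRT8 and KRT18. Of 25 genes of TGF-beta, activin and BMP signalling 2 rose, among them the pseudoreceptor BAMBI (0.32 ± 0.08), and 3 fell. Of 22 YAP and TEAD targets 2 rose and 1 fell, the matrix-associated CCN2 (-0.54 ± 0.09). Of 19 circadian clock genes 2 rose, among them the core activator BMAL1 (0.52 ± 0.10), and 2 fell. Of 20 genes of MAP kinase feedback and EGF receptor ligands ETV5 (0.41 ± 0.09) and DUSP5 rose. The vitamin D receptor VDR rose (0.56 ± 0.11) and CYP24A1 fell among 12 aryl hydrocarbon and bile acid receptor genes. CLU, clusterin (0.45 ± 0.08), and CD59 rose among 12 complement genes, and CD59 lost its call without shControl replicate 3 (edgeR adjusted p = 0.054). Of 22 endoplasmic reticulum chaperones and unfolded protein response genes XBP1 fell (-0.45 ± 0.08), of 20 heat shock genes HSPA1A rose (0.53 ± 0.11), whose reads its near-identical copy HSPA1B can share, and of 7 metallothioneins MT1A rose (1.14 ± 0.23), likewise uncertain among its close relatives. Rises numbered 2 of 25 for lysosome and autophagy and 1 of 16 for antigen presentation by MHC class I. SOX2, TGFBR3, TGFBI, BMP7, INHBB, WWTR1, AMOTL1, BHLHE41, PER2, BHLHE40, NPC2 and NLRC5, members of these lists counted but not described, each lost the call without at least 3 of the 6 libraries (edgeR adjusted p up to 0.245). IGF2 was the only call among 13 genes of the IGF axis, and of 11 genes of small RNA processing 0 passed by edgeR, 1 by DESeq2 and 2 at an unadjusted p under 0.05.

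Calls lay on every autosome, on X and on the mitochondrial genome. Between 4.81% (chromosome 21) and 8.44% (chromosome 20) of the genes tested on each autosome were called. On chromosome X 44 genes rose and 8 fell of 501, 10.4%. On the mitochondrial genome 3 genes rose and 2 fell of 33, 15.2%, the highest share. Transfer RNA genes made up 3 of these calls, beside MT-CO1 and MT-ND1, in libraries of polyadenylated RNA. On chromosome 14, which carries APEX1, 6.17% of 551 genes were called.

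**Figure D4:**
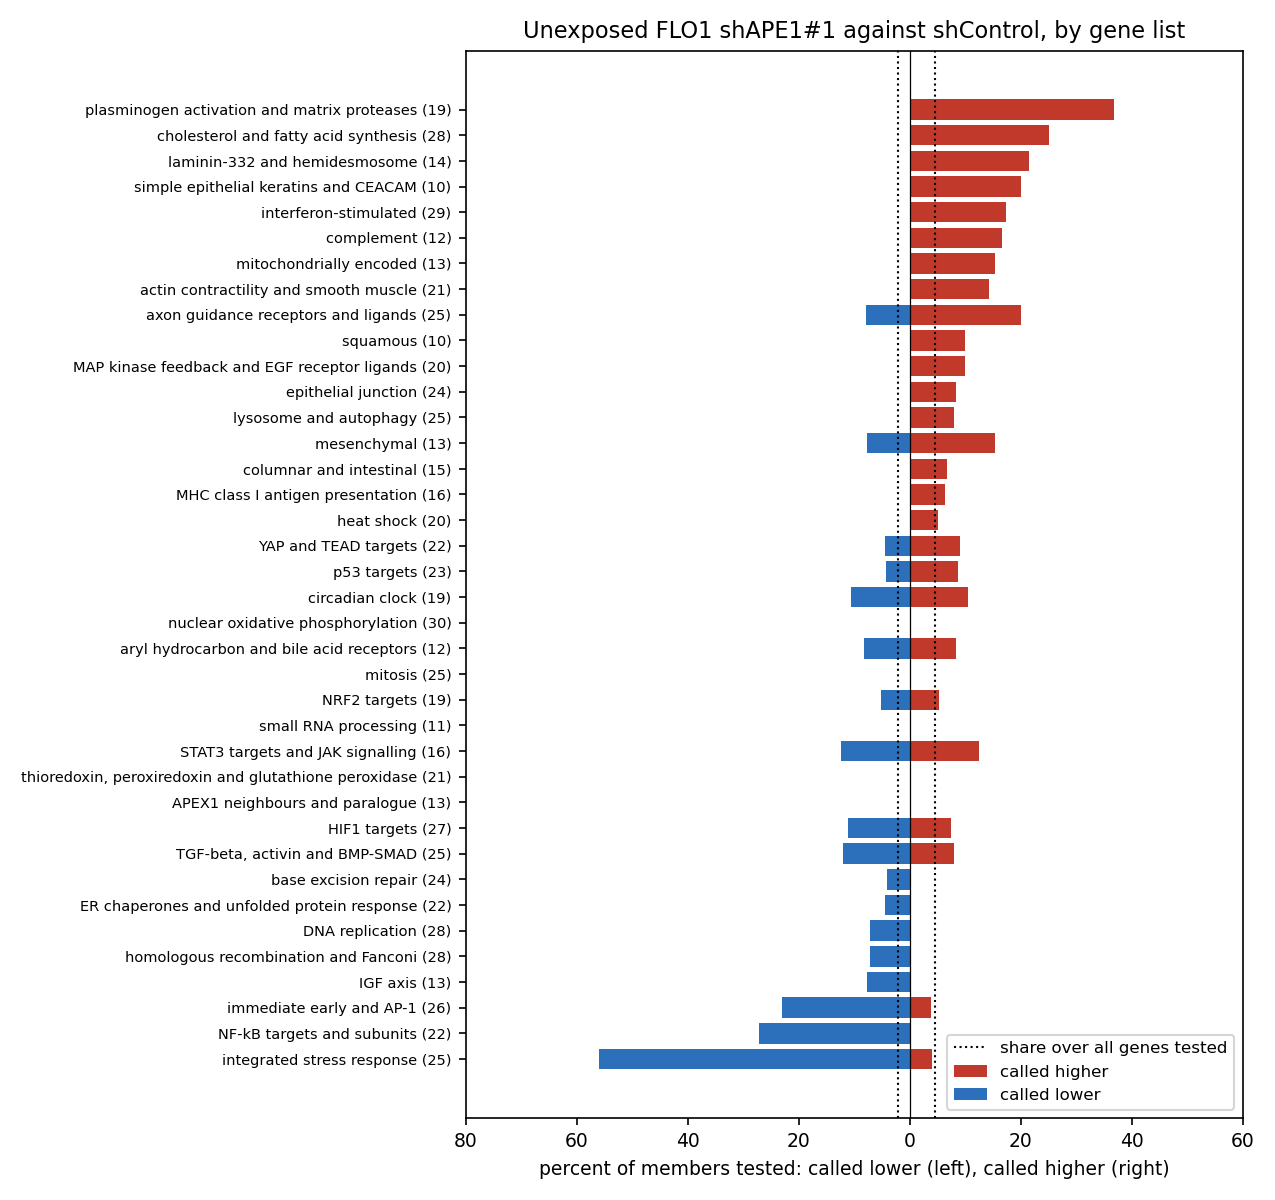
Bars give, for each gene list other than the cell type markers with at least 10 measured members (their number in brackets), the percent of members called lower (blue, left) and higher (red, right) with shAPE1#1; dotted lines mark the shares over all genes tested, 2.22% lower and 4.52% higher. The integrated stress response extends farthest to the left, with 14 of 25 members, and plasminogen activation and matrix proteases farthest to the right, with 7 of 19.

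The same hairpin was read a second time in libraries that share no sample with those above. They come from the same transduced lines, so a difference between the lines cannot be told apart from the hairpin's effect in either reading. In ABS-exposed cells shAPE1#1 against shControl gave 2795 called genes (16.6% of those tested), 1393 higher (8.26%) and 1402 lower (8.31%). Of the 763 genes that rose in unexposed cells, 750 (98.3%) were higher after ABS as well and 531 were called higher. The median log2 fold change of the 763 was 0.617 unexposed and 0.532 after ABS, beside -0.0042 over all genes after ABS. Of the 374 that fell, 356 (95.2%) were lower after ABS and 229 were called lower, with a median of -0.52 and -0.435. Counted on both lists, 760 genes were called with 1 sign, 66.8% of the calls in unexposed cells and 27.2% of those after ABS, and 1 gene was called with opposite signs. Without shControl-ABS replicate 1 the count of calls after ABS was 4565, without shAPE1#1-ABS replicate 3 it was 1831, and with the 6 ABS libraries fitted alone it was 422.

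Among the named genes, G0S2 rose by 2.46 ± 0.17 after ABS, EPAS1 by 1.41 ± 0.12, TGM2 by 1.64 ± 0.14 and CDH1 by 1.12 ± 0.13, while CHAC1 (-0.98 ± 0.12), SERBP1 (-0.73 ± 0.11) and PLXNA1 (-0.98 ± 0.15) fell. Of the 14 integrated stress response genes that fell unexposed, all 14 were lower after ABS and 11 were called lower; of the 7 rises in the protease list all 7 were called higher again; and of the 7 lipid genes all 7 were higher and 3 were called. NR4A2, at -1.003 ± 0.24 unexposed, stood at 0.25 ± 0.17 after ABS, and PLXNA2, at 1.06 ± 0.18 unexposed, stood at 0.14 ± 0.18. HSPA1A, at 0.53 ± 0.11 unexposed, stood at -0.31 ± 0.11 after ABS, and ANGPTL4, at -0.41 ± 0.11 unexposed, stood at 0.31 ± 0.11. The difference between exposures passed for none of these genes (edgeR adjusted p = 0.219 for NR4A2, 0.41 for PLXNA2, 0.067 for HSPA1A and 0.167 for ANGPTL4). The interaction of shAPE1#1 with ABS was called for 0 of 16868 genes (0%) by edgeR, with 1615 genes at an unadjusted p under 0.05, and for 30 genes by DESeq2. Without single libraries edgeR called 0 to 12 genes, with 12 without shControl-ABS replicate 2, 5 without shControl-ABS replicate 1 and 3 without shAPE1#1-ABS replicate 1.

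The other hairpin against APEX1 was set beside it. In unexposed FLO1 cells APEX1 stood at -2.42 ± 0.08 with shAPE1#3 and -2.97 ± 0.09 with shAPE1#1, both against the same 3 shControl libraries. With shAPE1#3, 133 genes were called (0.788% of those tested), 28 higher (0.166%) and 105 lower (0.622%), and 47 to 72 were called without any 1 of its 6 libraries. The 3 shAPE1#3 libraries were then compared with the 3 shAPE1#1 libraries directly. This difference was called for 2054 genes (12.2%), of which 786 (4.66%) were higher and 1268 (7.52%) lower with shAPE1#3, and for 1321 to 1458 without any 1 of these libraries. APEX1 itself was higher with shAPE1#3, by 0.55 ± 0.08 (edgeR adjusted p = 9.59e-05). Because the shAPE1#1 libraries enter both comparisons, the difference is not independent of the changes given above.

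For the named genes the values stand side by side. SERBP1 was at 0.02 ± 0.11 with shAPE1#3 (edgeR adjusted p = 0.983) and -1.14 ± 0.11 with shAPE1#1, a difference of 1.17 ± 0.11 (edgeR adjusted p = 3.46e-07). PLXNA1 was at 0.07 ± 0.15 and -0.96 ± 0.15, and DNMT1 at 0.12 ± 0.10 and -0.52 ± 0.10. TGM2 was at -0.01 ± 0.14 and 1.66 ± 0.13, EPAS1 at -0.28 ± 0.13 and 1.70 ± 0.13, SCD at 0.07 ± 0.08 and 0.83 ± 0.08, and CDH1 at 0.28 ± 0.13 and 1.21 ± 0.13; none of these 4 passed with shAPE1#3, and each differed between hairpins (edgeR adjusted p of at most 1.94e-05). PLAT rose with shAPE1#1 (1.85 ± 0.12) and fell with shAPE1#3 (-0.98 ± 0.14, edgeR adjusted p = 0.000341). CPA4 (2.09 ± 0.13 and -0.83 ± 0.15), ART5 (1.74 ± 0.14 and -0.94 ± 0.16), NUPR1 (0.96 ± 0.12 and -0.70 ± 0.12), GATA6 (0.68 ± 0.13 and -0.65 ± 0.14) and SLC2A3 (0.85 ± 0.15 and -1.85 ± 0.18) were also called in opposite directions. CHAC1 fell with both, at -1.09 ± 0.12 and -0.55 ± 0.12 (edgeR adjusted p = 0.029 with shAPE1#3). Of the 25 integrated stress response genes, CHAC1 and NUPR1 were called lower with shAPE1#3 and 0 higher, with a list median of -0.0416. ATF4 stood at -0.19 ± 0.09 and VLDLR at 0.07 ± 0.08 with shAPE1#3, and neither passed. CYP24A1, which inactivates vitamin D, fell with shAPE1#1 (-0.83 ± 0.19) and rose with shAPE1#3 (1.24 ± 0.17). Its fall lost the call without shAPE1#1 replicate 1 or shControl replicate 2 (edgeR adjusted p = 0.0708 and 0.0699). GATA6 encodes a transcription factor of columnar and gastric epithelium.

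**Figure D5:**
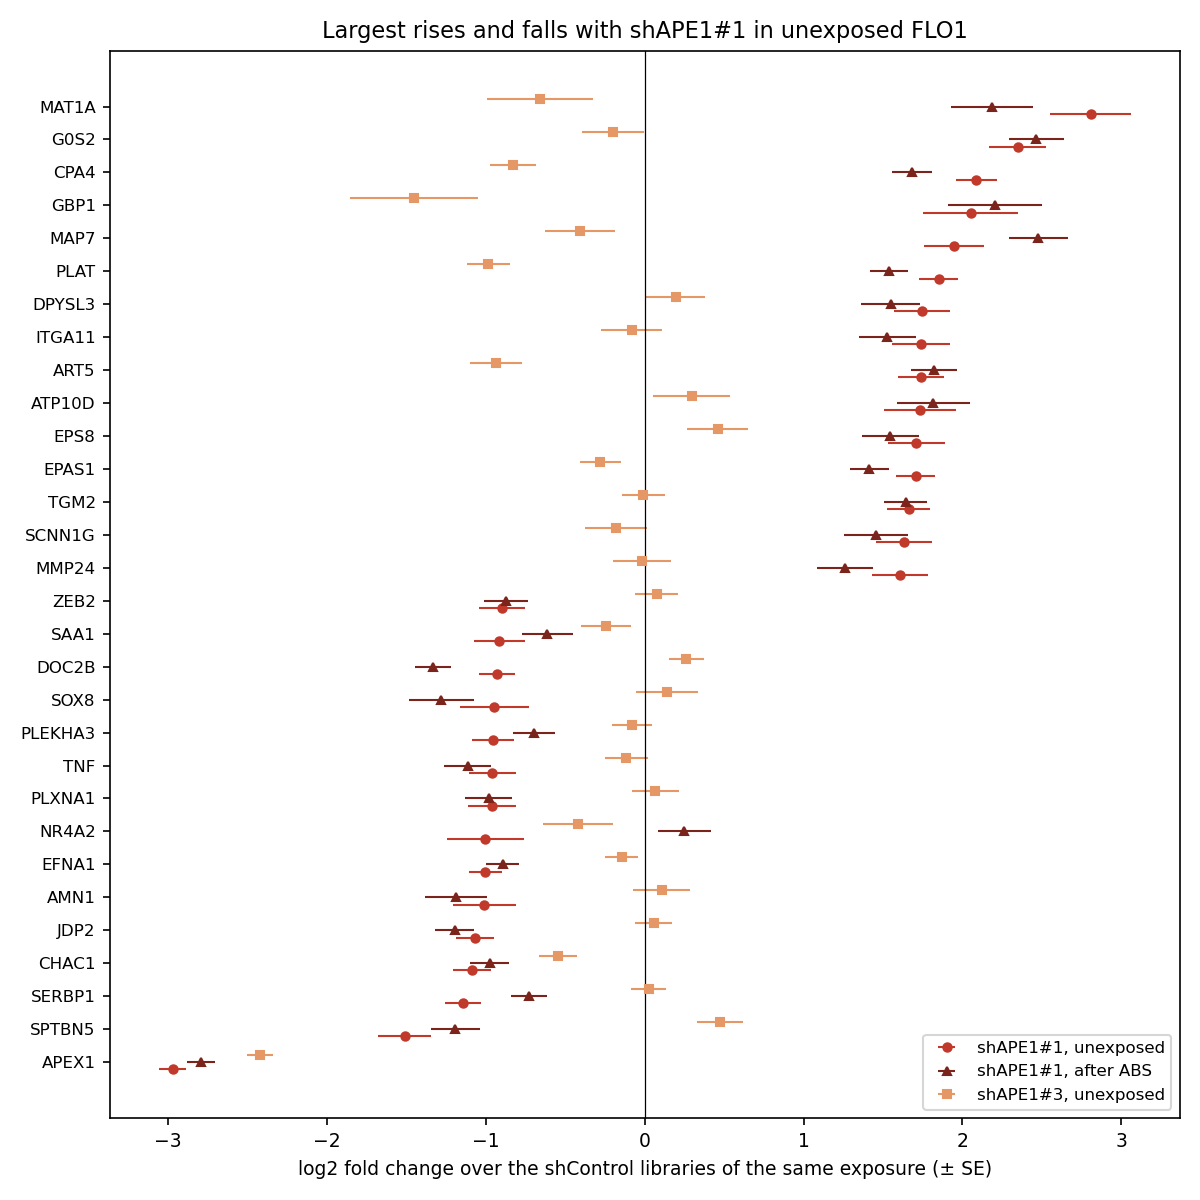
Log2 fold changes over shControl with their SE for the 15 largest rises and 15 largest falls with shAPE1#1 in unexposed FLO1, with shAPE1#1 after ABS and with shAPE1#3 unexposed; the 2 unexposed contrasts share the shControl libraries. Red circles and dark triangles lie on the same side of 0 for every gene shown except NR4A2, and the orange squares of shAPE1#3 lie nearer 0 or on the other side for most genes and near the circle for APEX1.

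A reading of shAPE1#3 that shares no sample with the unexposed comparison came from the ABS libraries of the same transduced lines. There shAPE1#3 against shControl gave 132 called genes (0.783%), 21 higher (0.124%) and 111 lower (0.658%). Of the 763 genes that rose with shAPE1#1 unexposed, 316 (41.4%) were higher with shAPE1#3 after ABS, 3 were called higher and 33 were called lower, and their median was -0.0559. Of the 374 that fell, 186 (49.7%) were lower, 6 were called lower and 2 higher, and the median was 0.00248. Set directly against shAPE1#1 after ABS, where 3757 genes were called (22.3%; 1904 or 11.3% higher and 1853 or 11% lower), 726 of the 763 (95.2%) were lower with shAPE1#3 and 341 of the 374 (91.2%) were higher. Without any 1 of its 6 libraries this difference was called for 2304 to 3216 genes. Leaving out shControl-ABS replicate 2, the shallowest FLO1 library, raised the calls of shAPE1#3 after ABS from 132 to 1126; of the 763 then 30 were called higher and 76 lower, and of the 374 then 18 were called lower and 14 higher.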

How the data were processed

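The authors deposited 1 table of raw gene counts for 36 libraries of polyadenylated RNA. Per the submitters' processing notes, reads were handled with Trimmomatic 0.36, STAR 2.5.2b and featureCounts (Subread 1.5.2) on GRCh38. Neither the annotation release nor the strand setting is given in the sources used here. Gene IDs were named from GENCODE release 29, in which 56898 of 57500 matched, and IDs without a match held 0.0183% of counts. Columns were joined to samples through the library names in the labels.

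The 18 FLO1 libraries (6 groups of 3) were fitted together with edgeR 4.0.16 (TMM, filterByExpr by group, robust quasi-likelihood fit) in R 4.3.3. Of all genes, 16868 were tested, p-values were adjusted by Benjamini-Hochberg over all of them, and calls are genes with an adjusted p under 0.05. Fold changes are log2, shAPE1#1 over shControl, with an SE from the same fit. An exact permutation test of 3 against 3 cannot go below 0.1.

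Named were APEX1, the 15 largest rises and falls among called protein-coding genes with a mean of at least 2 CPM and no overlap, the largest differences in CPM, up to 4 called members of each list (or the 2 most abundant where none was called) and the extremes of the other contrasts. Other list members are given to complete a list's account and were chosen after their values were seen. Lost calls were followed gene by gene for the genes named by this rule only. The members and the 43 lists (875 genes, 2 not in the table) were chosen with earlier results of these data known. On simulated counts for the comparison of shAPE1#1 with shControl, the fit recovered 77% of 100 genes changed by 1.5-fold and 93% of 100 changed by 2-fold. There were 6 false calls among the unchanged genes of the 16868. The changed genes were drawn from those with a mean of at least 2 CPM, and each gene had 1 spread for all groups. The rates therefore do not cover genes of lower level or the wider spread of the controls. Alternatives were other normalizations and filters, the 6 or 12 compared libraries alone, a replicate block, a GC offset (99.6% of IDs had a GC value), DESeq2 1.42.0, stricter thresholds and leaving out each library. The readings of shAPE1#3 after ABS, the count of calls shared between exposures and the ATF4 motif were added after seeing the data. Some genes are not reported here.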

Additional observations from a re-analysis of the deposited data

Results flagged for a closer look

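The effects of both hairpins against APEX1 differed under the same control and exposure. The direct difference between shAPE1#3 and shAPE1#1 in unexposed FLO1 cells was called for 2054 of 16868 genes, 12.2%, at an edgeR adjusted p under 0.05. Of these, 1268 were lower and 786 higher with shAPE1#3.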

How the results depend on the processing

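Counts of called genes moved with the libraries in the fit, with the GC offset and with single libraries; the cause was not tested. For shAPE1#1 in unexposed cells (1137 calls) the count was 2463 with only the compared groups fitted, 2840 with the GC offset, 573 at an adjusted p under 0.01, 71 tested against a 1.5-fold change and 665 to 773 without 1 library, while RLE and upper-quartile normalization (1135 each), no filter (1244), a 1 CPM filter (1180) and DESeq2 (1521) stayed within 1.5 times. The share of rises was 67.1% and ranged from 56.7% (GC offset) to 90.1% (1.5-fold). For shAPE1#1 after ABS (2795) it was 422 with only the compared groups and 1831 to 4565 without 1 library. For the interaction (0) it was 80 with no filter, 49 with the GC offset, 30 with DESeq2 and 0 to 12 without 1 library. For shAPE1#3 minus shAPE1#1 it was 5428 with only the compared groups, 3727 with the GC offset and 1321 to 1458 without 1 library unexposed (2054), and 2304 to 3216 after ABS (3757). For shAPE1#3 (133 unexposed, 132 after ABS) it was 400 and 6 with only the compared groups, 530 and 546 with the GC offset, 277 and 266 with DESeq2, and 47 to 72 and 63 to 1126 without 1 library. With no filter it was 202 unexposed. Genes called both unexposed and after ABS with 1 sign (760) numbered 321 with only the compared groups, 1750 with the GC offset and 512 to 786 without 1 library. The replicate numbers did not pair the libraries (r = -0.0376, 0.00607 and -0.0679 between same-numbered deviations). With the replicate number as a block, calls numbered 932 for shAPE1#1 and 87 for shAPE1#3 unexposed, and 10 integrated stress response genes were lower. Of 136 named genes, 120 were called and 53 of these lost the call in at least 1 of 14 settings. Signs turned for 3 genes that were never called: without 1 library ATP5F1A ranged from -0.02634 to 0.05738 (-0.01783 with the GC offset), CLDN5 from -0.003928 to 0.242 and ESAM from -0.0822 to 0.2631. Low counts limit the genes under 1 CPM named here, among them CXCL3.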
